A study of Homo sapiens with 10 samples.

Results

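The first 420 bases of human 28S rRNA, numbered from 0 as in the deposited counts, were examined in ribose oxidation sequencing (RibOxi-seq) libraries of PA1 cells, a human ovarian teratocarcinoma line. They are 420 of the 6939 positions of 18S and 28S rRNA that were counted, chosen by position alone, and hold 2 of the 106 known sites of ribose methylation in both rRNAs, A397 and A399. In RibOxi-seq, total RNA is cut by the nuclease Benzonase, and fragments are recorded by the base at their 3′-end. The 5 control libraries were made from digested RNA alone, whereas the RNA of the 5 oxidized libraries also went through β-elimination and periodate oxidation. These steps are meant to leave only fragments whose last base is 2′-O-methylated open to ligation. By the study's account, unmethylated ends that keep a 2′-phosphate or cyclic phosphate also resist oxidation and can give false signal. An oxidized count alone therefore does not show methylation. In the NextSeq experiment, 3 control and 3 oxidized libraries were sequenced, with replicates 1 and 2 of each group from cells at passage 6 and replicate 3 of each from cells at passage 4. In the MiSeq experiment, a pilot with less RNA, 2 control and 2 oxidized libraries came from cells at passage 7. Sequencer, RNA input and passage differed together between the experiments and cannot be told apart. By the study's protocol, oxidized RNA was also dephosphorylated with T4 PNK and taken in a larger amount than control RNA, so these steps and the oxidation cannot be told apart between the groups. No source says that replicates were separate cultures, and all libraries are of 1 cell line, so P-values measure the spread between these libraries only.

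The 5′-end of 28S rRNA pairs with 5.8S rRNA in the large ribosomal subunit. Ribose methylation of rRNA is placed by the methyltransferase fibrillarin in box C/D small nucleolar ribonucleoproteins, whose guide RNA pairs with the rRNA upstream of a D box (CUGA) and selects the base that faces guide base 5 before that box. The list of known sites names U26 as the guide of A397 and U81 as the guide of A399. A 2′-O-methyl group blocks cleavage 3′ of its base, so a methylated base is sought as a peak in oxidized libraries and a gap in control libraries.

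In hg19 (GRCh37), the 420 positions lie within the 28S rRNA on chrUn_gl000220:113348-113767 (plus strand), with 1 identical copy at chrUn_gl000220:157320-157739, and counts of the 2 copies cannot be separated. G or C made up 61.4% of the bases, against 69.4% of all 28S. The stretch around the known sites (positions 382 to 415), with A397 and A399 in capitals, is shown with the guide stretches found in GRCh37, in which the D box and the base that faces the site are in capitals. The 28S sequence is read 5′ to 3′, as are the guides.
28S 382-415: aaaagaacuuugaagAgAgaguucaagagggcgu
SNHG1 stretch, faces A397: ugaacucucUcuuuCUGA
GAS5 stretch, faces A399: cuugaacucUcucaCUGA
The stretch in SNHG1, host gene of U26, pairs over 13 bases with 28S 394 to 406 and lies at chr11:62622804-62622816 (minus strand), intronic in 67 of the 77 transcripts that span it. The stretch in GAS5, host gene of U81, pairs over 13 bases with 28S 396 to 408 and lies at chr1:173833322-173833334 (minus strand), intronic in 70 of 87. In both, the site faces guide base 5, and the 28S stretches of the 2 guides overlap at 396 to 406. Another 3 stretches are shown because they hold the highest counts of the range at unlisted positions in oxidized MiSeq libraries (G28, U30 and C40), the highest count of control NextSeq replicate 3 (A75) and large MiSeq fold changes at unlisted positions (A365, C366 and G368). These positions, in capitals, were chosen after the values were seen.
28S 14-62, with G28, U30 and C40: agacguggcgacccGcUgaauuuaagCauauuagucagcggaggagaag
28S 64-86, with A75: aacuaaccaggAuucccucagua
28S 356-375, with A365, C366 and G368: ucaacaaguACcGuaaggga

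Total counts differed strongly between the groups. Control libraries held 72458614 to 80964624 counts (NextSeq) and 30392418 to 44061905 counts (MiSeq), and oxidized libraries 12293410 to 13694386 and 1353768 to 1568883. These totals are not read numbers, since the study reports fewer sequencer reads than these counts for every control sample. Low counts gathered at 50 and just above, as if 1 read stood for about 50 counts, which is an assumption. They also gathered at 2. In oxidized NextSeq libraries 31, 52 and 53 positions of the range held exactly 50 counts, and 45, 41 and 33 held exactly 2. In oxidized MiSeq libraries these were 28 and 32, and 18 and 32. Counts of 2 lie below 1 such step, so steps of 50 describe only part of the low counts. A value of 3 counts is 0.0371 to 2.22 CPM depending on the library, where CPM is counts per 1000000 counts of 18S and 28S rRNA in the library. Values below are counts as deposited or CPM, and intervals from counting alone would understate their error. Control replicate 3 of the NextSeq stood apart, with a Spearman's rho across the 420 positions, which are not independent, of 0.222 and 0.232 against replicates 1 and 2, which had 0.992 between them. The oxidized MiSeq libraries agreed within sampling noise when counted in steps of 50 (chi-square per degree of freedom 1.02 over 674 positions of 18S and 28S, p = 0.323) but not as deposited counts (47.6), and were kept as 2 libraries. Positions 0 to 13 had no count in any library.

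At A399, oxidized NextSeq libraries had 288033, 226495 and 266047 counts, and control NextSeq libraries 732, 1012 and 8615. Oxidized MiSeq libraries had 22033 and 19723 counts there, and control MiSeq libraries 214 and 56. All oxidized libraries were above all controls in both experiments, and A399 was the highest position of the range in each oxidized library. In CPM, A399 was 19870 ± 1711 (SD, n = 3) in oxidized and 45.6 ± 59.4 (n = 3) in control NextSeq libraries, and 14306 ± 371 (n = 2) and 3.35 ± 2.13 (n = 2) in the MiSeq ones.

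At A397, oxidized NextSeq libraries had 21598, 15578 and 17192 counts, and control NextSeq libraries 1863, 2719 and 10256. Oxidized MiSeq libraries had 19106 and 15903 counts, and control MiSeq libraries 56 and 50. The groups did not overlap in either experiment once scaled by library total. The oxidized level of A397 was 1385 ± 214 CPM (SD, n = 3) on the NextSeq and 11963 ± 305 CPM (n = 2) on the MiSeq, the latter 8.64 times the former. The control level was 65.0 ± 61.4 CPM (n = 3) on the NextSeq and 1.46 ± 0.265 CPM (n = 2) on the MiSeq.

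**Figure D1:**
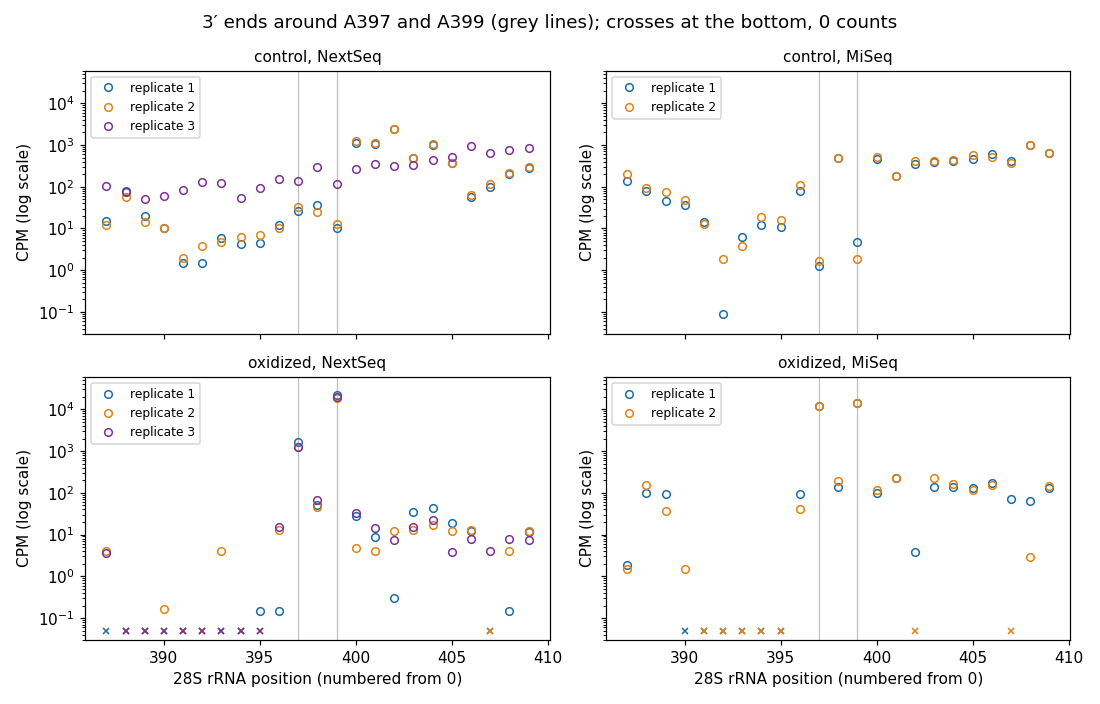
CPM on a log scale at 28S positions 387 to 409 for each library, 1 circle a replicate and a cross for 0 counts, with A397 and A399 as grey lines. Oxidized A399 is the highest point of both lower panels, oxidized A397 is near it on the MiSeq and over 10 times below it on the NextSeq, and gaps in the upper right panel stand at both sites.

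The experiments differed in how far A397 stood below A399. In oxidized NextSeq libraries the counts of A397 were 7.50%, 6.88% and 6.46% of those of A399, and in oxidized MiSeq libraries 86.7% and 80.6%. The ratio was 0.767 higher in the MiSeq libraries (means 0.837 ± 0.043, n = 2, and 0.0695 ± 0.00522, n = 3), with p = 0.1 in an exact two-sided permutation test, the smallest p that 3 libraries against 2 allow. By mean oxidized CPM among the 106 known sites, A399 ranked 7 on the NextSeq and 11 on the MiSeq, and A397 ranked 69 and 16.

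Known sites 2 nt apart occur at 9 places in 18S and 28S rRNA. The upstream site had a lower mean share relative to its neighbour on the NextSeq than on the MiSeq in 8 of them, and the MiSeq ratio was over 3 times the NextSeq ratio in 6. For A397 and A399 it was 12.0 times the NextSeq ratio. It was 32.2 times at 28S G1521 and A1523, 13.7 times at 18S U172 and C174, and 1.01 times at 28S C2421 and G2423. At C2421 and G2423 the libraries of the experiments overlapped (1.33 to 1.58 on the NextSeq, 1.37 and 1.51 on the MiSeq), so that pair shows no direction. At 28S G4617 and U4619, where the MiSeq mean was lower (0.897 times), they overlapped as well. These are descriptions of 3 and 2 libraries with no test, and the cause was not tested.

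**Figure D2:**
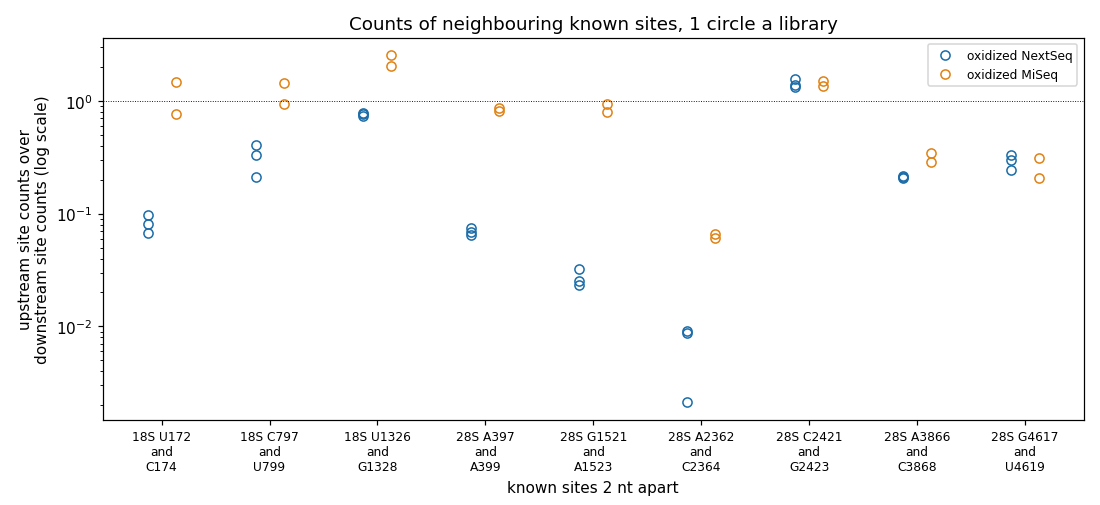
Counts of the upstream site over those of the downstream site (log scale) for the 9 pairs of known sites 2 nt apart, 1 circle an oxidized library, blue for NextSeq and orange for MiSeq. For A397 and A399 the NextSeq libraries sit between 0.0646 and 0.0750 and the MiSeq libraries at 0.806 and 0.867.

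Oxidized was compared with control at each position with edgeR's quasi-likelihood test after TMM normalization, over all 18S and 28S positions with a count, and a position was called at a Benjamini-Hochberg adjusted P under 0.05. For A399 the log2 fold change was 13.18 ± 1.19 (approximate SE) on the NextSeq (adjusted P = 0.00239) and 12.28 ± 0.91 on the MiSeq (adjusted P = 0.00693). Here and below, the value after ± a log2 value is its size divided by the square root of edgeR's F statistic. It is not a fitted SE, and is least reliable where a group is near 0 counts. For A397 it was 8.67 ± 0.81 on the NextSeq (adjusted P = 0.00267) and 13.26 ± 0.34 on the MiSeq (adjusted P = 0.00555). TMM moved the NextSeq values far from those of library totals, since the median log2 fold change of all tested positions was -2.25 with TMM and -6.26 with totals only. With library totals only, A399 and A397 stood at 8.77 and 4.41 on the NextSeq, with the call kept for both, and at 12.05 and 13.00 on the MiSeq. The study used DESeq2 with an adjusted P under 0.0001 and a log2 fold change above 7. At these thresholds edgeR's test called 0 positions of the range in either experiment. It also called 0 of all 6718 (NextSeq) and 6661 (MiSeq) positions tested, so the 0 is not particular to the range. DESeq2's Wald test called 2 (NextSeq) and 13 (MiSeq) in the range. An unadjusted P under 0.05 in edgeR's test with that fold change was found at 2 and 16. A397 and A399 were among the positions found by each of these last 2 rules in both experiments. Shares over all positions are not given for these last counts, so they cannot be set against a rate over all positions.

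The oxidation effect of A397 was larger on the MiSeq by 4.95 ± 0.79 on the log2 scale (edgeR's interaction term, adjusted P = 0.0133). Without control MiSeq replicate 1 or replicate 2 the adjusted P was 0.0893 or 0.0802, and the difference was 4.84 or 5.07. For A399 the difference was -0.59 ± 1.03 (adjusted P = 0.900), it became 3.29 with library totals only and 0.37 without control MiSeq replicate 1, and was called in neither.

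In the controls, the count at each known site was set against the median of the 20 nearest positions that are not known sites, 10 on each side. At A397 it was 0.549, 0.832 and 0.638 of that median in the NextSeq controls and 0.00799 and 0.00870 in the MiSeq controls. At A399 it was 0.147, 0.211 and 0.401 on the NextSeq and 0.0180 and 0.00663 on the MiSeq. In the NextSeq controls the median over all 106 known sites was 0.0758, 0.105 and 0.332. Counted from the lowest ratio there, A397 ranked 90, 96 and 87 and A399 ranked 63, 68 and 64. In the MiSeq controls the median over the 104 known sites with a ratio was 0.0575 and 0.0386. A397 ranked 21 and 33 there, and A399 ranked 32 and 31. Counts rose steeply across the sites, so the 10 neighbours upstream gave other ratios than the 10 downstream. Against the upstream median alone, A397 stood at 3.25, 3.90 and 1.53 and A399 at 1.28, 1.45 and 1.28 in the NextSeq controls, above that side. In the MiSeq controls A397 stood at 0.0512 and 0.0488 and A399 at 0.196 and 0.0546 of it. Thus both sites were gaps on both sides in the MiSeq controls, whereas in the NextSeq controls they were below the downstream neighbours but not below the upstream ones. The control level of A397 was lower on the MiSeq, with a log2 difference of -5.60 ± 0.93 (edgeR, adjusted P = 0.0315), whereas the difference of A399, -3.75 ± 1.33, was not called (adjusted P = 0.104). The call at A397 was lost with library totals only (-5.48, adjusted P = 0.0569) and on leaving out any 1 control library other than control NextSeq replicate 3.

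G398 lies between the sites and is not a known site. Control NextSeq libraries had 2586, 1992 and 22522 counts there, oxidized NextSeq libraries 682, 574 and 922, control MiSeq libraries 21805 and 14929, and oxidized MiSeq libraries 212 and 264. In MiSeq controls it stood near G400 (20376 and 15288 counts), and it fell in oxidized MiSeq libraries, with a log2 fold change of -1.32 ± 0.32 (adjusted P = 0.0297). On the NextSeq it was called higher, at 3.30 ± 0.95 (adjusted P = 0.0498), although its CPM overlapped between the groups (51.5, 46.7 and 67.3 oxidized; 35.7, 24.6 and 298 control) and its log2 fold change was -1.12 with library totals only. Upstream, positions 391 to 395 together had 0 counts in both oxidized MiSeq libraries and 2, 50 and 0 in the oxidized NextSeq ones, against 1269 to 36352 in the controls. Downstream, oxidized counts of 50 or more returned at G400 and A401 in all 5 oxidized libraries.

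Across the whole range, 406 of the 420 positions were tested on the NextSeq. Of these, 5 (1.23%) were called higher, where 3.02% of all 18S and 28S positions tested were, and 90 (22.2%) were called lower, against 18.8% of all. A log2 fold change above 7 was reached by A397 and A399 alone (2 positions, 0.493%, against 1.53% of all). The median log2 fold change was -2.45 in the range. The other called higher were U208, U286 and G398, at 3.13, 3.30 and 3.30. U208 had 168, 108 and 258 oxidized and 1093, 1344 and 3994 control counts, and U286 had 994, 378 and 922 oxidized and 6293, 6057 and 9355 control counts. In neither did oxidized CPM exceed all controls, and with library totals only both turned to -1.07 and -0.72. A334 had 520, 514 and 824 oxidized counts against 52, 156 and 4714 in controls, with a log2 fold change of 5.68 that was not called (adjusted P = 0.0508).

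Of the 90 positions called lower on the NextSeq, 70 had 0 counts in every oxidized library. The lowest log2 fold changes were at G291, C165, C127, G73 and G329, all at 0 in the 3 oxidized libraries. G291 had 46164, 48425 and 6582 control counts and C165 had 43447, 47451 and 9084. Set against a floor of 3 counts per oxidized library, G291 was at least 1917-fold lower and C165 at least 1894-fold lower than the mean control, and with 3 steps of 50 counts as the floor at least 38.3-fold and 37.9-fold lower. G73 was also at 0 in both oxidized MiSeq libraries, with 4571 and 2458 control counts, and G291 too, with 2564 and 2299. C165 had 50 and 52 oxidized MiSeq counts. The numbers of calls rested on single libraries: 20 positions were called higher and 104 lower without control NextSeq replicate 3, 2 and 1 without control replicate 1, 2 and 6 without control replicate 2, and 3 and 75 without oxidized replicate 3.

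On the MiSeq, 402 positions were tested. Of these, 49 (12.2%) were called higher, against 10.6% of all 18S and 28S positions tested, and 180 (44.8%) were called lower, against 51.6%. Above a log2 fold change of 7 stood 12 (2.99%, against 2.36%), of which 10 were not known sites. The study, with its own test and thresholds, also called unlisted sites in this pilot over both rRNAs. It took them as likely false positives for want of control reads, and held the pilot too weak for accurate calls. The median in the range was -2.18, against -4.76 over all positions. Of the 49 called higher, 25 lay within the first 120 positions, and 17 of the 37 positions from 25 to 61, a stretch chosen after the values were seen, were among them. The 2 positions called higher in both experiments were A397 and A399. Leaving out control MiSeq replicate 1 or replicate 2 reduced edgeR's calls to 6 or 4 higher and 0 lower in both (29 or 30 lower at an unadjusted P under 0.05), while 70 or 85 higher and 238 or 222 lower were called without oxidized MiSeq replicate 1 or 2. DESeq2's Wald test on all 4 libraries called all 49 higher and all 180 lower as well.

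**Figure D3:**
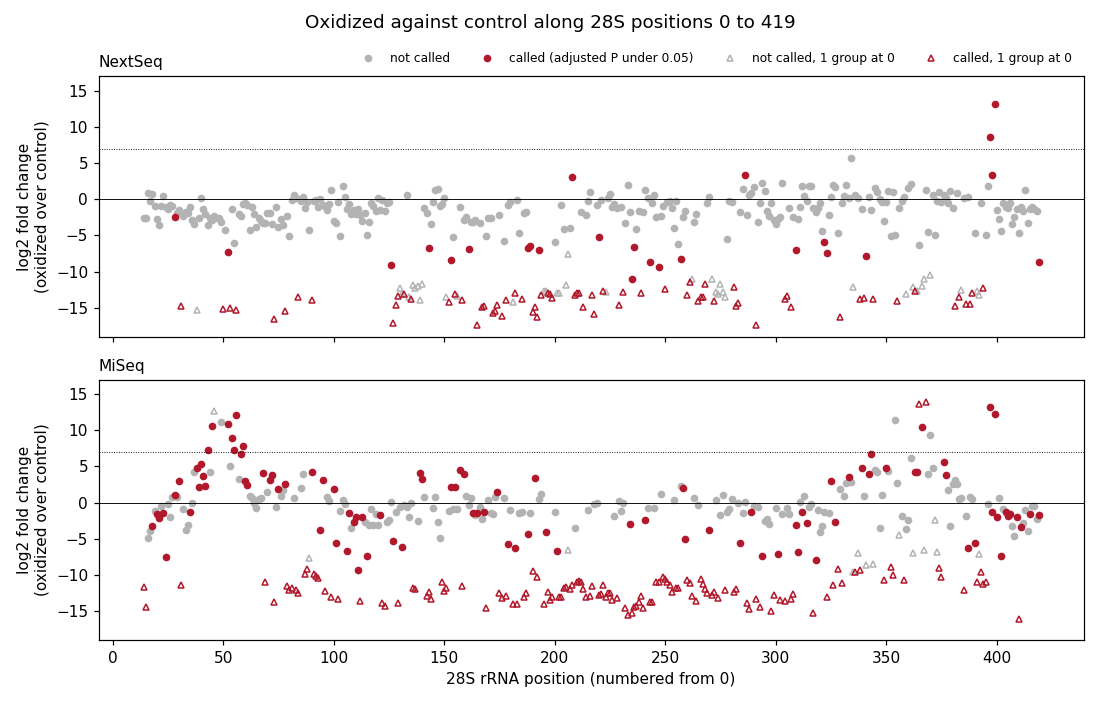
Fitted log2 fold change of oxidized over control (edgeR, TMM) at each tested position, with called positions in red, triangles where a group is at 0 in all libraries (fitted size not a bound), and a dotted line at 7. On the NextSeq A397 and A399 are the 2 points above the line, and on the MiSeq 12 called positions are, 7 of them between 43 and 59 and 3 between 365 and 368.

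The oxidized MiSeq libraries held signal near the start of 28S that the oxidized NextSeq libraries did not. At U30, oxidized MiSeq libraries had 7354 and 6866 counts (4880 ± 272 CPM, n = 2) and oxidized NextSeq libraries 310, 362 and 318 (25.4 ± 3.54 CPM, n = 3). At C40, oxidized MiSeq libraries had 5285 and 4497 counts (3345 ± 33.1 CPM), and oxidized NextSeq libraries 302, 360 and 310 (24.9 ± 3.79 CPM). At G28, these were 3026 and 2620 counts on the MiSeq, and 212, 302 and 362 on the NextSeq. Among the 6833 positions of 18S and 28S that are not known sites, U30 and C40 ranked 2 and 3 by mean oxidized MiSeq CPM and G28 ranked 9, whereas they ranked 280, 285 and 321 on the NextSeq. C40 was chosen after its values were seen.

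The control level at U30 and G28 was high in both experiments, and at C40 it was lower. Control MiSeq libraries had 37181 and 17947 counts at U30, 4079 and 3353 at C40, and 51715 and 28940 at G28, the highest mean control level of the range on the MiSeq. NextSeq controls had 39499, 42941 and 221747 at U30, 677, 704 and 123038 at C40, and 101658, 107447 and 256848 at G28. Replicate 3 was thus the highest NextSeq control at each, and at C40 by over 100 times. The log2 fold change on the MiSeq was 3.01 ± 0.34 at U30 (adjusted P = 0.00693), 5.30 ± 0.25 at C40 (adjusted P = 0.00693) and 1.11 ± 0.26 at G28 (adjusted P = 0.0278), under 7 in each. On the NextSeq it was -1.43 ± 0.70 at U30 (adjusted P = 0.185) and 0.13 ± 1.65 at C40 (adjusted P = 0.962), while G28 fell by 2.41 ± 0.61 on the log2 scale (adjusted P = 0.0388). The effect differed between the experiments at U30 (4.79 ± 0.91, adjusted P = 0.0193) and G28 (3.92 ± 0.80, adjusted P = 0.0227) but was not called at C40 (5.39 ± 2.35, adjusted P = 0.180).

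**Figure D4:**
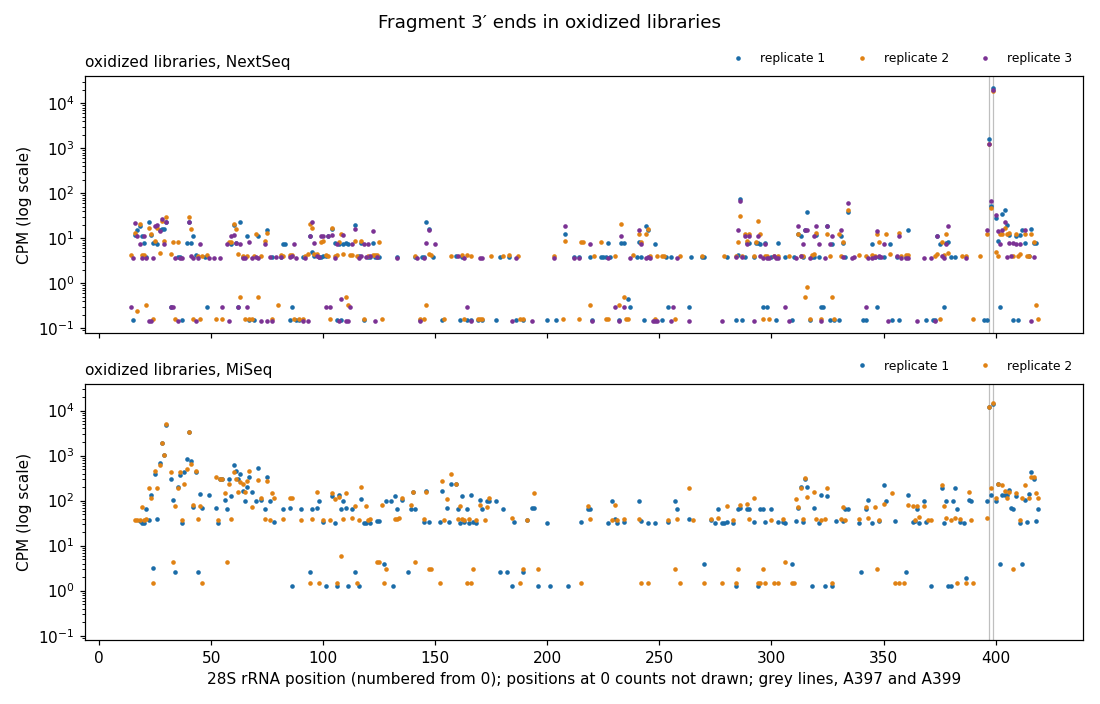
CPM on a log scale at each position with a count in the oxidized libraries of both experiments, 1 colour a replicate, with A397 and A399 as grey lines. The MiSeq libraries have a second group of high positions near the start, led by U30 at 4687 and 5072 CPM, which in the NextSeq libraries stays at 23.2 to 29.4 CPM.

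The largest MiSeq fold changes other than those of the known sites stood where MiSeq controls had almost no counts. G368 had 0 control and 156 and 102 oxidized counts, A365 had 0 control and 100 and 104 oxidized counts, and C366 had 2 and 0 control and 50 and 60 oxidized counts. G56 had 2 and 0 control and 160 and 202 oxidized counts, C52 had 5 and 4 and then 108 and 457, and U45 had 4 and 2 and then 218 and 105. Against a floor of 3 counts per control library, A365 was at least 843-fold and G368 at least 1048-fold higher in oxidized MiSeq libraries, and with a floor of 3 steps of 50 at least 16.9-fold and 21.0-fold. Oxidized counts at these positions were thus 1 to 9 steps of 50. A46 had 0 control and 109 and 2 oxidized counts and was not called (adjusted P = 0.0531). Of the 47 positions called higher that are not known sites, 20 had a mean of at most 150 oxidized counts. Both stretches, from 43 to 59 and from 340 to 370, were chosen after the values were seen.

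The same positions were cut in NextSeq controls. U45 had 417, 168 and 102174 control counts, C52 had 4749, 5856 and 26213, G56 had 5966, 6527 and 20250, and A365 had 213, 366 and 21310. Summed over positions 43 to 59, the control level was 835, 835 and 10577 CPM on the NextSeq and 17.2 and 16.5 CPM on the MiSeq. Over positions 340 to 370 it was 1188, 1174 and 2713 CPM on the NextSeq and 83.3 and 188 CPM on the MiSeq. In the oxidized libraries, positions 43 to 59 summed to 15.9, 29.1 and 41.2 CPM on the NextSeq and 2076 and 1988 CPM on the MiSeq. Control and oxidized levels thus lay in opposite order in the experiments over this stretch. The control is the denominator of the fold changes called, and the stretches were chosen after the values were seen. How far the low MiSeq control and the high MiSeq oxidized level each enter the calls was not tested.

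**Figure D5:**
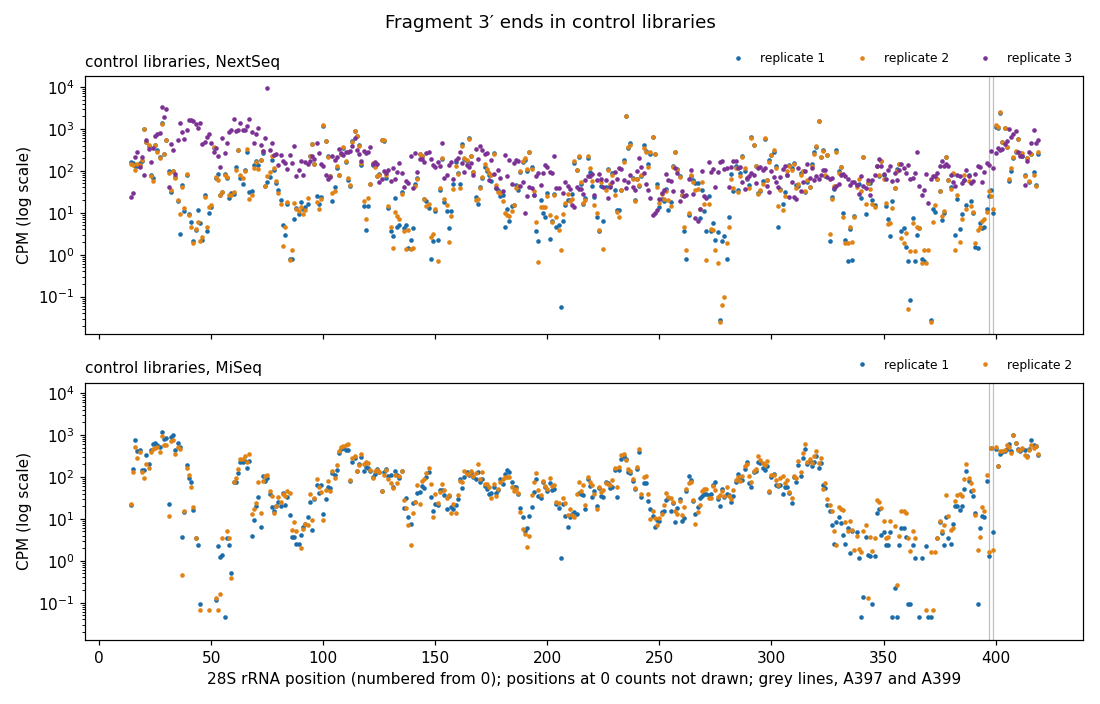
CPM on a log scale at each position with a count in the control libraries, 1 colour a replicate, with A397 and A399 as grey lines. MiSeq controls have valleys near positions 43 to 59 and 340 to 370, NextSeq replicates 1 and 2 nearly coincide, and NextSeq replicate 3 lies apart, highest at A75 (9360 CPM).

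The interaction was called at 45 of 406 positions (11.1%, against 8.2% of all positions tested), with the log2 fold change, oxidized over control, higher on the MiSeq at 35 and lower at 10. A higher value here covers a smaller fall as well as a larger rise. In 34 of the 45 a group was at 0 in all its libraries, which was the oxidized NextSeq group in 24, the oxidized MiSeq group in 9 and the control MiSeq group in 1. Of the 11 with counts in every group, 10 had the higher log2 fold change on the MiSeq. A294 was the exception, with 106, 302 and 152 oxidized NextSeq counts and 2 and 2 oxidized MiSeq counts, against 2150, 2302 and 8811 and 9939 and 9720 in the controls (adjusted P = 0.0130). G233 had the smallest P, with 102, 254 and 150 oxidized NextSeq counts and 0 in both oxidized MiSeq libraries (adjusted P = 0.0125). C173 was the reverse, with 0 in all oxidized NextSeq libraries and 150 and 100 counts in the oxidized MiSeq ones (adjusted P = 0.0133). C52 and G56 (adjusted P = 0.0130 each) had 2 and 0 counts in all oxidized NextSeq libraries together. By edgeR's test 0 were called without control MiSeq replicate 1 or without replicate 2 (89 and 85 at an unadjusted P under 0.05), and 12 were without control NextSeq replicate 1 or without replicate 2. Without oxidized MiSeq replicate 1 there were 29.

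Control levels were called higher on the MiSeq at 5 of 406 positions (1.23%, against 5.99% of all tested) and lower at 43 (10.6%, against 8.96%). Without control NextSeq replicate 3 these became 125 and 171, and without any other control library both were 0 by edgeR's test (5 to 8 higher and 53 to 92 lower at an unadjusted P under 0.05). The highest mean control levels on the NextSeq were at A75, G28, G402, G235 and U30, and on the MiSeq at G28, G408, A33, A32 and U30. A75 owed its rank to 1 library, with 706611 counts in control replicate 3 and 3949 and 6020 in replicates 1 and 2, and 4076 and 3411 in the MiSeq controls. G402 and G235 were high in the other 2, with 173418, 200972 and 23799 counts and 145043, 164042 and 2870 counts. G408 had 45090 and 30829 MiSeq control counts and 14384, 16898 and 57307 NextSeq control counts.

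By base, G was 48.5% of the counts of the range in NextSeq control replicates 1 and 2, 23.8% in replicate 3 and 31.0% in both MiSeq controls, where it is 33.6% of the 420 bases. On the NextSeq 50 of 138 tested G positions were called lower and 12 of 98 A, 26 of 111 C and 2 of 59 U positions. On the MiSeq these were 74 of 136 G, 33 of 97 A, 46 of 111 C and 27 of 58 U positions. On the NextSeq 2 of the A, 0 of the C, 1 of the G and 2 of the U positions were called higher. On the MiSeq 19 of 97 A, 12 of 111 C, 13 of 136 G and 5 of 58 U positions were called higher. These counts were not tested against each other. Calls by base are not given for all positions tested, so whether these differences between bases are particular to the range was not tested.

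The range took 5.09%, 5.10% and 10.2% of the counts in NextSeq controls and 2.49%, 2.11% and 2.21% in oxidized NextSeq libraries, where A397 and A399 made up 93.4% to 94.0% of it and A399 alone 87.4% to 87.7%. It took 4.52% and 4.66% in MiSeq controls and 5.99% and 5.89% in oxidized MiSeq libraries, of which the 2 known sites made up 43.8% and 44.7%. Oxidized libraries were thus lower by 4.53 percentage points on the NextSeq and 1.35 higher on the MiSeq, with groups that did not overlap in either. The exact two-sided permutation tests gave p = 0.1 and p = 0.33, the smallest that 3 against 3 and 2 against 2 libraries allow. Without control NextSeq replicate 3 the NextSeq difference was -2.83 points, and without the 2 known sites both were negative, at -6.64 and -1.27 points.

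In windows of 60 nt, oxidized NextSeq libraries kept 2.16% ± 0.195 (n = 3) of all counts in the last 60 positions and 0.00713% to 0.0266% in each of the other 6. Oxidized MiSeq libraries kept 3.02% ± 0.00980 (n = 2) there and 1.77% ± 0.00842 in 0 to 59, where control MiSeq libraries had 1.21% and 0.953% and control NextSeq libraries 0.738%, 0.720% and 3.32%. The fewest MiSeq counts after oxidation were in positions 180 to 239, at 0.0629% ± 0.0116. There 43 of 60 positions were called lower and 1 higher, against 51.6% and 10.6% of all positions tested. The first 60 positions had 15 called higher of 42 tested on the MiSeq and 0 of 46 on the NextSeq, against 10.6% and 3.02% of all positions tested.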

How the data were processed

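The authors deposited, for each library, a count per base of 18S and 28S rRNA: sense alignments whose 3′-end is at that base, not normalized. Per the study's methods and processing notes, reads were trimmed with cutadapt 1.12, collapsed by randomers, aligned with TopHat2 2.1.1 to hg19 with 2 copies of each rRNA, and converted with SAMtools 0.1.19. Duplicate collapse and the 2 copies can change counts. Lines for other RNA held 0 counts and took no part, and the authors' DESeq2 comparison tables (fold changes, p-values) were not used. Known sites are those listed in the study's supplement as not new. Counts were compared in R 4.3.3 with edgeR 4.0.16 (TMM, glmQLFit, glmQLFTest, at least 1 count summed, Benjamini-Hochberg over all tested positions). The test was first run on simulated data with lower dispersions than the fits of these data gave (0.53 to 1.46). That run does not show how the test performs on these data. The call was set at an adjusted P under 0.05. Alternatives were DESeq2 1.42.0, RLE factors, library totals, filters on low counts (10 counts summed, filterByExpr), counts divided by 50, 28S alone, a replicate block, passage and leaving out each library.

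The positions, lists and threshold were chosen with earlier results of these data known. Named positions were the known sites and those within 3 nt, the 10 largest log2 fold changes per experiment among positions counted in every oxidized library, the 5 highest control levels per experiment, the 5 lowest called log2 fold changes (NextSeq) and the 5 smallest interaction P-values. Others are said to be chosen after their values were seen.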

Additional observations from a re-analysis of the deposited data

Results flagged for a closer look

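The effect of oxidation differed between the MiSeq and NextSeq experiments at 12 of the named positions (edgeR's interaction term, 10 libraries). G233, G56, C52, A294 and C173 were named for the smallest interaction P, and U208, A365, C366 and C165 for an extreme log2 fold change in 1 experiment. Both choices favour positions that differ between the experiments, so the number 12 is partly set by them. In the range 11.1% of tested positions were called, against 8.2% of all tested. A group was at 0 in all its libraries at C165, C173, C366 and G56 (oxidized NextSeq), G233 and U208 (oxidized MiSeq) and A365 (control MiSeq). The adjusted P was 0.0133 at A397, 0.0193 at U30, 0.0227 at G28 and 0.0130 each at C52 and G56, where the log2 fold change, oxidized over control, was higher on the MiSeq. It was 0.0248 at C165, 0.0133 at C173, 0.0227 at A365 and 0.0161 at C366, also higher on the MiSeq. It was 0.0137 at U208, 0.0125 at G233 and 0.0130 at A294, where it was lower on the MiSeq. All 12 lost the call without control MiSeq replicate 1 or without replicate 2, and sequencer, RNA input and passage cannot be told apart.

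The share of counts in the first 420 positions of 28S moved in opposite directions, by -4.53 percentage points on the NextSeq and 1.35 on the MiSeq, oxidized minus control, with every oxidized library on that side of every control. The difference between the experiments was not tested.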

How the results depend on the processing

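Of 230 alternative values of 18 results, 171 kept their direction and side of the threshold (for counts, stayed within 1.5 times). Results from permutation tests could change only in direction, since their smallest possible p is 0.1, so they count as kept in part by construction. NextSeq positions called higher (5) were 10 with DESeq2, 2 with library totals only, 2 with counts divided by 50, 3 with the replicate block and 8 with passage as a covariate, and positions called lower (90) were 146, 279, 0 and 7 under the first 4. Positions above 7 (2) were 1 with library totals only. MiSeq positions called lower (180) were 116 with counts divided by 50. With the replicate block, MiSeq positions called higher, lower and above 7 were all 0, and A397 and A399 were not called at 13.26 and 12.47 (adjusted P = 0.143 and 0.166), with 1 residual degree of freedom. Interaction calls (45) were 122 with DESeq2, 84 with library totals only and 18 with counts divided by 50. Control calls, higher (5) and lower (43), were 26 and 121 with DESeq2 and 2 and 19 with library totals only, while those higher were 8 with RLE factors and 3 with 28S alone. The difference of A399 turned to 3.29 with library totals only, and the MiSeq share to -1.27 points without the known sites.

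Leaving out 1 library, NextSeq calls ranged from 2 to 20 higher, 1 to 104 lower and 2 to 4 above 7, with A397 at 8.41 to 9.19 and A399 at 12.79 to 14.42, called throughout. MiSeq calls ranged from 4 to 85, 0 to 238 and 2 to 16, with A397 at 13.15 to 13.38 and A399 at 11.71 to 13.24, called throughout. Interaction calls ranged from 0 to 66, with A397 at 4.48 to 5.18 and A399 at -1.65 to 0.37, and control calls from 0 to 125 higher and 0 to 171 lower. The shares ranged from -5.38 to -2.83 and from 1.28 to 1.42 points, and the ratio from 0.737 to 0.798. A lone library left in a group is assumed to vary like the others. Causes were not tested where none is given.

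The correlation of deviations of same-numbered libraries was -0.0211 to 0.0283, and that of differently numbered ones -0.0297 to 0.0289. These values gave no sign of pairing by replicate number but cannot show that it is absent. On the MiSeq they differ in sign only (0.00936 or -0.00936), as so few libraries force. On the NextSeq, replicate 3 of both groups shared a passage, so replicate numbers were linked in part. The MiSeq calls lost with the block are therefore not set aside by these correlations. Depth limits the oxidized MiSeq libraries most, where 3 steps of 50 counts are 95.6 and 110.8 CPM.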
